A study of Homo sapiens with 10 samples.

Results

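H3K27ac, a histone mark of active promoters and enhancers, was examined at 8 lipid and sterol synthesis genes of 19970 protein-coding genes on chromosomes 1 to 22 and X. The genes were FASN, ACACA, ACLY, SCD, FADS2, SREBF1, SREBF2 and INSIG1, and each was given a window of its GENCODE release 44 gene body plus 50 kb on each side (hg38). Peaks overlapping these windows were taken from each of the 8 H3K27ac peak lists, which gave between 67 and 75 peaks per list in SKBR3 cells and between 45 and 48 in MDA-MB-453 cells. Peaks of the 8 lists that overlapped were merged into regions, and 90 of 76044 regions lay in the windows.

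The study profiled SKBR3 and MDA-MB-453, established human breast cancer cell lines used as models of the HER2 subtype, with and without TWEAK, a TNF family cytokine whose receptor is Fn14. Each of the 4 groups (SKBR3 untreated, SKBR3 with TWEAK, MDA-MB-453 untreated, MDA-MB-453 with TWEAK) had 2 libraries. Per the labels, serum starvation lasted 8 h, and the treated cells then received 10 ng/ml of TWEAK over 48 h, renewed at 24 h. The study's methods call the replicates of its cell line ChIP-seq biological, and the labels of these libraries do not say from which cultures they came, so p-values measure the spread among these libraries.

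Fatty acids are built in the cytosol from acetyl-CoA, which ACLY makes from citrate, ACACA carboxylates to malonyl-CoA and FASN extends to palmitate, after which SCD and FADS2 add double bonds. The genes of this route and of cholesterol synthesis are switched on by the transcription factors SREBP1 and SREBP2, the products of SREBF1 and SREBF2. INSIG1 holds SREBP precursors in the endoplasmic reticulum when sterols are plentiful and is itself an SREBP target, and breast cancers of the HER2 subtype are known for high FASN.

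Promoter sequences of SREBF2, SCD and ACLY are shown because the H3K27ac peak at each start differed between the lines in width or rank and no annotated exon falls in these windows. Each sequence is the 250 bases before a RefSeq start site (GRCh38.p14, 5′ to 3′ along the gene), and capitals mark CCAAT boxes (CCAAT), E-boxes (CACGTG) and matches to a sterol regulatory element (TCACNCCAC), searched on both strands.
SREBF2, chr22:41832855-41833104, plus strand: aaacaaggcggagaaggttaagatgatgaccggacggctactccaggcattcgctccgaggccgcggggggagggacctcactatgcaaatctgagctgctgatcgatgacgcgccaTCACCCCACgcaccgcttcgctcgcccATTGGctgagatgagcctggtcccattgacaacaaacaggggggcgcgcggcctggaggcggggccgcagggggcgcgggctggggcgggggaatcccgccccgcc
SCD, chr10:100346983-100347232, plus strand: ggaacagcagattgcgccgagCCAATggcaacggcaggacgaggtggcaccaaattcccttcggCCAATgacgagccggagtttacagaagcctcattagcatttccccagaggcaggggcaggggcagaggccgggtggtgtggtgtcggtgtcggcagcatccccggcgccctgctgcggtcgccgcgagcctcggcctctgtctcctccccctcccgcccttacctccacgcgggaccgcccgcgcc
ACLY, chr17:41919023-41919272, minus strand: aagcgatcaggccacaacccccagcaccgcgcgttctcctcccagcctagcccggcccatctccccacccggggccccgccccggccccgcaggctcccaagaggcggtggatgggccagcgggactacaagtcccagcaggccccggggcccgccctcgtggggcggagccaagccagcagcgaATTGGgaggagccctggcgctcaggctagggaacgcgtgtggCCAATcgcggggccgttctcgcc
The SREBF2 window held TCACCCCAC, 133 to 125 bases before the start, with a CCAAT box on the other strand 106 to 102 bases before it. A sterol regulatory element match of this form was in 308 of 34789 RefSeq windows of this length (0.885%), a CCAAT box in 32% and an E-box in 6.33%. The INSIG1 window, not printed because it holds exon sequence, had an E-box 55 to 50 bases before its start and a CCAAT box on the other strand. Apart from the SREBF2 one, no window of the 7 genes present in the RefSeq table had a match to the sterol regulatory element as spelled here, which describes these letters in these windows only.

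FASN, the enzyme that makes palmitate, lay under wide H3K27ac peaks in both lines, the wider ones in SKBR3. Its window on chromosome 17 (gene body 82078338 to 82098294, minus strand) had 62.2, 59.9, 61.6 and 50.4 kb covered by peaks in the SKBR3 lists, given here and below in the order untreated 1, untreated 2, TWEAK 1, TWEAK 2. The MDA-MB-453 lists covered 24.9, 28.3, 29.7 and 26.0 kb. Every SKBR3 value was above every MDA-MB-453 value, with means of 58.5 kb ± 5.48 (SD, n = 4) and 27.2 kb ± 2.19, a ratio of 2.15. The window also holds 7 other coding genes, and the merged region at the FASN start had a CCDC57 start in it or within 1 kb. The peak at the FASN start was 40.3, 39.3, 32.7 and 30.5 kb wide in SKBR3, against 14.7, 17.5, 20.5 and 15.2 kb in MDA-MB-453. It ranked between 17 and 51 from the widest among all peaks of its SKBR3 list and between 35 and 105 in MDA-MB-453, so these ranks overlapped. All peaks together covered 100%, 100%, 91.8% and 87.4% of the FASN gene in SKBR3, and between 25.0% and 30.6% in MDA-MB-453, where the start peak lay mostly upstream of the start.

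The score rank of the same FASN peak overlapped between the lines, while its fold enrichment did not. Rank is given as the percentile of the promoter peak's score among all peaks of its own list, where 100 is the top peak. A percentile also depends on how many weak peaks the list holds. Peaks with q under 1e-05 made up 39.4% to 52.6% of the SKBR3 lists and 59.8% to 63.8% of the MDA-MB-453 lists. The part of this in the percentile differences between the lines was not tested. FASN was at 95.7, 96.8, 96.8 and 95.5 in SKBR3 and at 97.0, 96.7, 94.3 and 96.9 in MDA-MB-453. The difference of means was -0.024 points (SKBR3 minus MDA-MB-453, exact two-sided permutation p = 0.943). The fold enrichment of this peak over background ran from 12.6 to 17.3 in SKBR3 and from 19.0 to 25.7 in MDA-MB-453. The part of peak width in that difference was not tested.

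SREBF1, which encodes SREBP1, the main driver of fatty acid synthesis genes, had the largest difference in peak width. Its promoter peak on chromosome 17 (gene 17810399 to 17837002, minus strand) was 41.4, 38.5, 40.4 and 38.0 kb wide in SKBR3 and 9.53, 8.24, 8.90 and 9.16 kb in MDA-MB-453. The means were 39.6 kb ± 1.60 (SD, n = 4) and 8.96 kb ± 0.545, a ratio of 4.42, and the groups lay far apart. All 4 SKBR3 lists covered the whole gene (100%), and the peak ranked between 19 and 28 from the widest in those lists but between 371 and 561 in MDA-MB-453. The window also holds RAI1 and TOM1L2, and the merged region at the SREBF1 start had a RAI1 start in it or within 1 kb. Covered length in the window was 74.3, 58.7, 64.6 and 54.5 kb in SKBR3 against 27.4, 29.4, 28.7 and 30.3 kb. The promoter percentile was high in both lines, at 95.2, 96.3, 95.6 and 95.9 in SKBR3 and 94.4, 95.0, 93.8 and 94.4 in MDA-MB-453. That difference was 1.35 points, and it reversed to -0.07 points with overlapping groups when only peaks with q under 1e-05 were ranked. Before ranking, the scores went the other way without overlap. They were 397, 681, 605 and 533 in SKBR3 and 965, 833, 790 and 718 in MDA-MB-453.

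**Figure D1:**
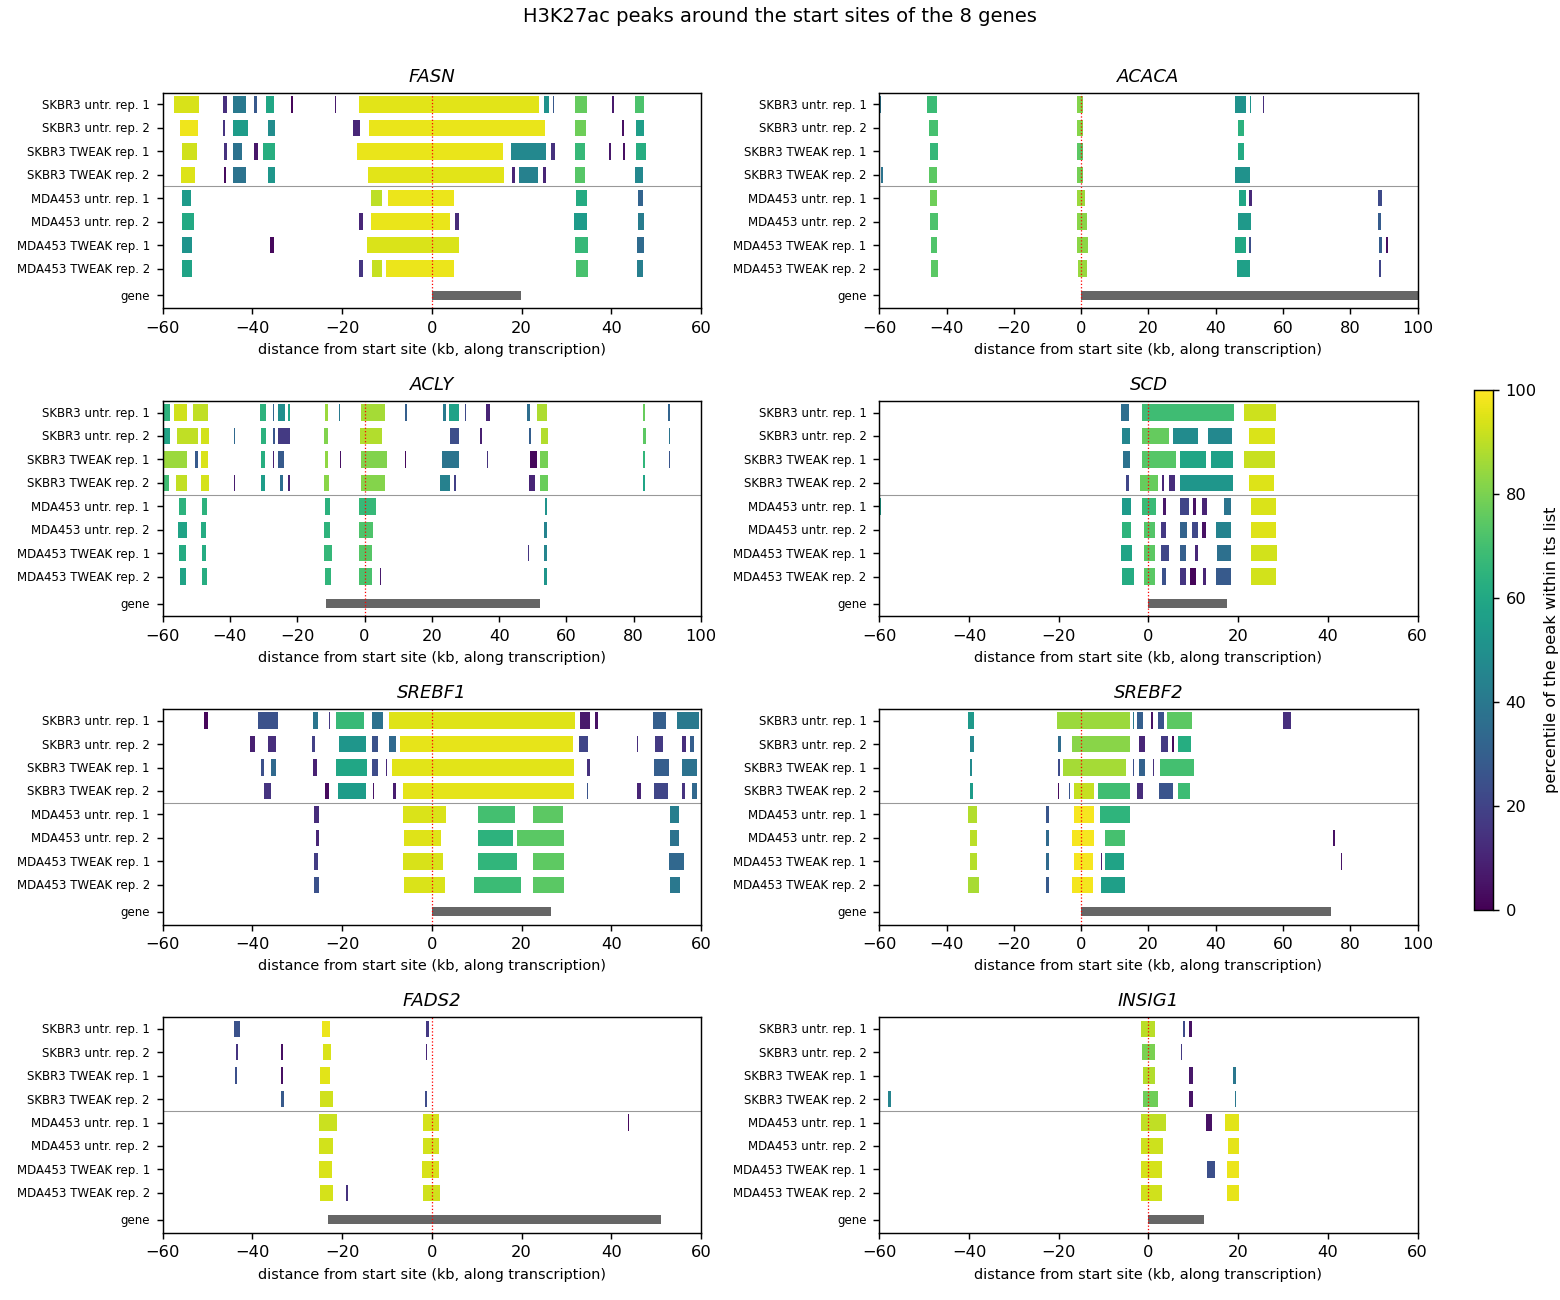
H3K27ac peaks of each list around the start site of each gene, with distance in kb along the direction of transcription (0, dotted line), the gene body as a grey bar and the colour giving the percentile of the peak within its list. The ACACA gene and window run past the right edge. The SREBF1 peak spans the gene in the 4 SKBR3 lists and the FASN peak in the 2 untreated SKBR3 lists, the FADS2 start has a strong peak in the 4 MDA-MB-453 lists, and a strong peak downstream of INSIG1 in MDA-MB-453 meets a small one in the 2 SKBR3 TWEAK lists.

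SREBF2, which encodes SREBP2, the main driver of cholesterol synthesis genes, went in opposite directions in width and rank. Its window on chromosome 22 (gene 41833105 to 41907306, plus strand) was covered over 45.7, 33.9, 38.2 and 31.8 kb in SKBR3 and over 20.7, 19.2, 18.9 and 20.7 kb in MDA-MB-453. The promoter peak, which holds the sterol regulatory element match printed above, ranked at 85.1, 82.4, 86.4 and 91.3 in SKBR3 and at 98.5, 98.8, 98.7 and 98.2 in MDA-MB-453. The difference of -12.2 points separated the lines completely. Its fold enrichment over background ran from 7.21 to 11.0 in SKBR3 and from 19.6 to 24.4 in MDA-MB-453, while the median over all peaks of a list ran from 3.61 to 4.26 and from 4.85 to 5.04. The peak was 21.8, 17.2, 18.5 and 5.98 kb wide in SKBR3 and 5.82, 6.38, 5.59 and 6.30 kb in MDA-MB-453, so the second SKBR3 TWEAK list overlapped the other line, and without that list the widths did not overlap. In the broad layout of MACS2 a peak's score and fold are averages over its length, and the part of width in the lower SKBR3 rank was not tested.

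INSIG1, the sterol sensing brake on SREBP processing, had more H3K27ac in MDA-MB-453 on all 3 measures. Its window on chromosome 7 (gene 155297776 to 155310235, plus strand) was covered over 4.1, 3.2, 4.3 and 4.5 kb in SKBR3 and over 9.8, 7.4, 9.1 and 7.5 kb in MDA-MB-453, a mean 2.11 times that of SKBR3. The promoter percentile was 89.6, 79.9, 88.4 and 77.7 in SKBR3 and 90.3, 92.2, 93.6 and 92.8 in MDA-MB-453, a difference of -8.30 points in which the first untreated lists of both lines were less than 1 point apart. The promoter peak was 3.16, 2.95, 2.81 and 3.45 kb wide in SKBR3 and 5.54, 4.83, 4.72 and 4.70 kb in MDA-MB-453.

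ACLY, the source of cytosolic acetyl-CoA, had the largest ratio of covered length among the 8 genes. Its window on chromosome 17 (gene 41866917 to 41930542, minus strand) was covered over 35.4, 31.1, 34.1 and 27.2 kb in SKBR3 and over 11.0, 10.8, 10.6 and 10.7 kb in MDA-MB-453, a ratio of 2.97. The window also holds 7 other coding genes. At the CNP promoter, peaks covered 11.5, 11.2, 10.5 and 7.39 kb of it in SKBR3. The MDA-MB-453 lists covered 3.65, 4.08, 3.29 and 3.58 kb there. The ACLY promoter percentile was 86.5, 88.3, 83.5 and 82.3 against 67.1, 71.9, 73.7 and 71.4, a difference of 14.1 points. Ranked by fold enrichment in place of score, that difference was 2.81 points and the lines overlapped. The peak at the RefSeq starts of ACLY, which holds the promoter printed above, was 7.24, 6.42, 7.56 and 7.36 kb wide in SKBR3 and 5.13, 3.94, 3.82 and 3.76 kb in MDA-MB-453. Its score before ranking overlapped, at 185, 335, 186 and 178 in SKBR3 and 191, 201, 235 and 194 in MDA-MB-453. In both SKBR3 TWEAK lists a narrower peak at another ACLY start, shared with ODAD4, ranked higher and was taken as the promoter peak when all GENCODE starts were used, at 0.88 and 1.34 kb.

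ACACA, the rate-limiting carboxylase of fatty acid synthesis, went the other way from ACLY and FASN. Its window on chromosome 17 (gene 37084992 to 37406836, minus strand) was covered over 9.5, 10.1, 7.4 and 12.9 kb in SKBR3 and over 17.6, 19.7, 20.8 and 19.0 kb in MDA-MB-453. The promoter percentile was 81.5, 81.9, 74.6 and 79.0 in SKBR3 and 84.8, 82.4, 82.6 and 84.4 in MDA-MB-453, a difference of -4.29 points, and ranking by fold enrichment left -4.26 points with the lines overlapping. The promoter peak was narrow in both lines, at 1.78, 1.89, 1.92 and 1.78 kb in SKBR3 and 2.60, 3.10, 3.16 and 2.66 kb in MDA-MB-453, without overlap. A second RefSeq start at 37359096 had a weaker peak at percentiles from 50.7 to 63.9 over the 8 lists, and the third, at 37299767, had no peak within 1 kb in any list.

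SCD, which places the first double bond in saturated fatty acids, differed in extent but not in rank. Its window on chromosome 10 (gene 100347233 to 100364826, plus strand) was covered over 29.3, 24.4, 26.7 and 24.0 kb in SKBR3 and over 16.4, 18.2, 17.7 and 18.4 kb in MDA-MB-453. Divided by the covered length of the whole list, that difference no longer separated the lines. The promoter peak was 20.5, 5.98, 7.66 and 3.97 kb wide in SKBR3 and 3.13, 2.49, 2.59 and 2.56 kb in MDA-MB-453, and in every list but the first untreated SKBR3 one, separate peaks lay along the rest of the gene. The percentile at the start was 68.8, 76.3, 73.7 and 76.8 in SKBR3 and 67.7, 73.3, 74.6 and 74.4 in MDA-MB-453 (difference 1.41 points, exact two-sided permutation p = 0.514). The fold enrichment of that peak ran from 5.01 to 7.69 in SKBR3 and from 7.80 to 8.92 in MDA-MB-453, without overlap. The strongest peak of the SCD window was not at the start but downstream of the gene, at 100368530 to 100375897, with percentiles from 91.8 to 94.9 in all 8 lists.

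FADS2, a desaturase of polyunsaturated fatty acid synthesis, gave different answers at different start sites. Over all GENCODE starts its highest-ranked peak was the one shared with FEN1 and TMEM258, at an upstream FADS2 transcript start, in 7 lists, and the one at the FADS1 side in the first untreated MDA-MB-453 list. With that choice, the percentiles of 96.9, 94.3, 95.4 and 92.7 in SKBR3 and 93.7, 93.2, 94.2 and 93.6 in MDA-MB-453 overlapped (difference 1.12 points, exact two-sided permutation p = 0.257). The widths of these peaks were 1.69, 1.96, 2.15 and 2.86 kb in SKBR3 and 3.58, 3.08, 2.93 and 2.95 kb in MDA-MB-453. The RefSeq starts at 61816203 and 61816404 lie next to the start of FADS1, on the opposite strand. Within 1 kb of them, MDA-MB-453 had peaks at percentiles 93.7, 93.1, 93.9 and 92.7, while SKBR3 had one only in the first untreated list, at 16.6. In the whole region from 61814077 to 61817920 on chromosome 11, peaks covered 3.58, 3.46, 3.72 and 3.77 kb in MDA-MB-453 and 0.831, 0.223, 0 and 0.235 kb in SKBR3. The RefSeq-start difference of -89.2 points was the largest rank difference of any of the 8 genes, and this choice of starts was made after the values were seen. Covered length in the whole window overlapped, at 5.8, 4.1, 5.2 and 7.1 kb in SKBR3 and 8.0, 6.5, 6.7 and 7.2 kb in MDA-MB-453 (exact two-sided permutation p = 0.0857). It was wholly above in MDA-MB-453 under other settings, such as 20 kb flanks (-4.06 kb) or peaks with q under 1e-05 (-3.46 kb), but overlapped at 4.25 kb in the other direction with 100 kb flanks.

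**Figure D2:**
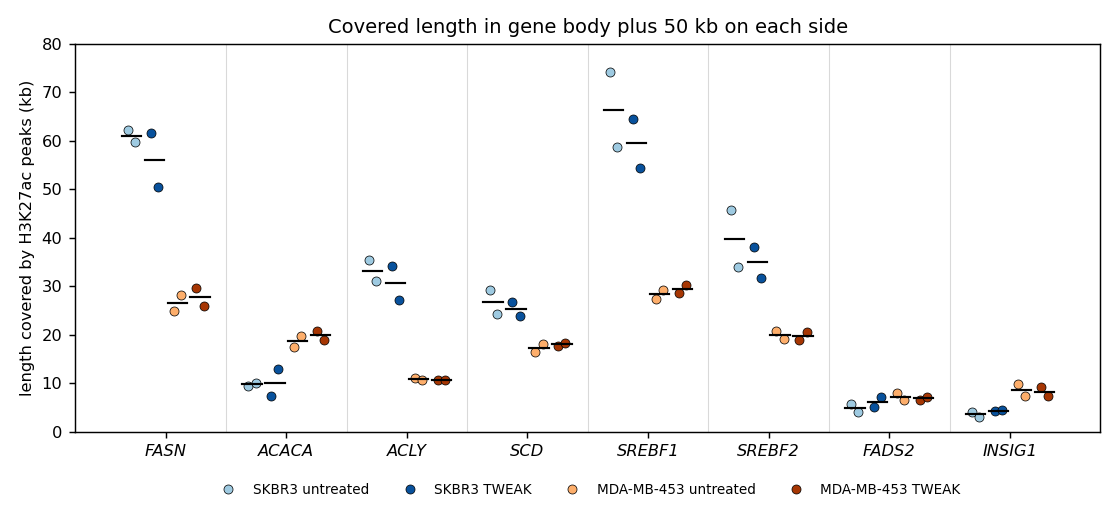
Length covered by H3K27ac peaks (kb, vertical axis) in the window of each gene, with a point per list (2 per group, replicate 1 on the left) and a bar at the group mean. The SKBR3 points lie above the MDA-MB-453 points for FASN, ACLY, SCD, SREBF1 and SREBF2 and below them for ACACA and INSIG1.

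Counted over the 8 genes, covered length was wholly above in SKBR3 for 5 (FASN, ACLY, SCD, SREBF1, SREBF2) and wholly above in MDA-MB-453 for 2 (ACACA, INSIG1). Among all 19970 coding genes, SKBR3 was wholly above for 40.8% and MDA-MB-453 for 22.8%. The exact two-sided permutation test over the 70 assignments of 4 and 4 lists gave p = 0.0286 for each of the 7, which is the smallest it allows, and 0.0450 after Benjamini-Hochberg adjustment over all genes. The median difference was 13.0 kb for the 8 genes and 0.541 kb for all genes. SKBR3 lists were longer, with between 43684 and 51687 peaks covering 92.1 to 106 Mb, against 36148 to 37813 peaks covering 70.5 to 72.1 Mb. The 8 windows together took between 0.201% and 0.276% of the covered length of a SKBR3 list and between 0.193% and 0.198% of an MDA-MB-453 list.

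**Figure D3:**
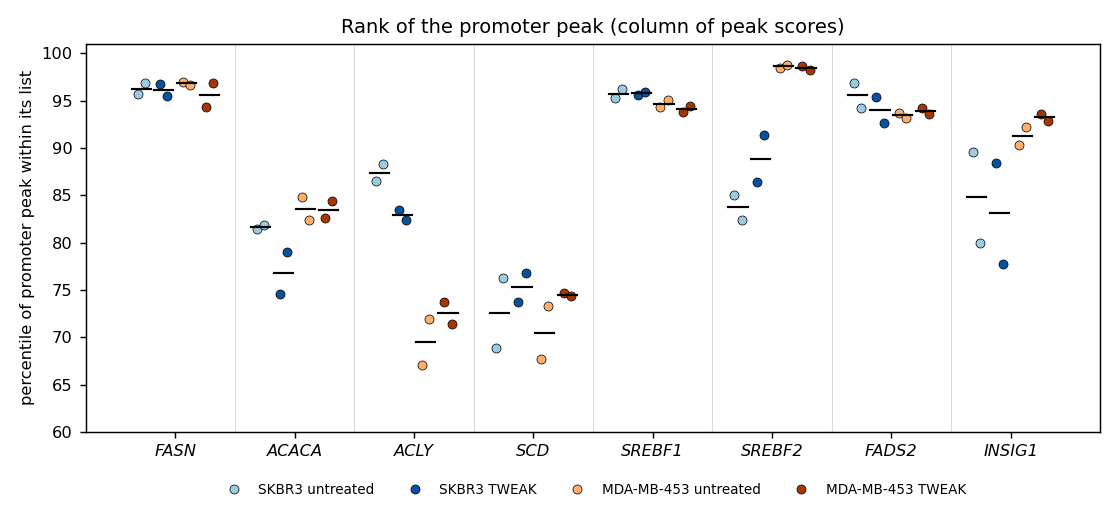
Percentile of the promoter peak within its list (vertical axis, starting at 60) for each gene, with a point per list and a bar at the group mean. FASN and SREBF1 lie above 93 in all 8 lists, ACLY is higher in SKBR3, and SREBF2 and INSIG1 are higher in MDA-MB-453.

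The promoter percentile was wholly above in SKBR3 for 2 genes (ACLY, SREBF1), wholly above in MDA-MB-453 for 3 (ACACA, SREBF2, INSIG1) and overlapping for 3 (FASN, SCD, FADS2). The shares over the 13571 coding genes with a promoter peak in at least 1 list were 29.5% and 29.8%, so the counts were close to the background in both directions. The 5 genes had p = 0.0286 in the exact permutation test, or 0.0482 after adjustment. With RefSeq start sites alone, FADS2 joined the genes higher in MDA-MB-453, giving 2 and 4 against backgrounds of 28.2% and 30.7%. By fold enrichment of the promoter peak, MDA-MB-453 was wholly above for 6 genes (FASN, ACACA, SCD, SREBF2, FADS2, INSIG1) and SKBR3 for 0. The shares over all genes were not computed for fold enrichment, whose median over all peaks of a list was also higher in MDA-MB-453.

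Promoter peak width was wholly above in SKBR3 for FASN, SCD and SREBF1 and wholly above in MDA-MB-453 for ACACA, FADS2 and INSIG1, with ACLY and SREBF2 overlapping. Over all genes, SKBR3 had the wider promoter peaks for 20.1% and MDA-MB-453 for 35.0%. The 6 genes reached p = 0.0286 in the exact permutation test but 0.0518 after adjustment over all genes, above 0.05. The median difference in width was 3.31 kb for the 8 genes and -0.186 kb over all genes (SKBR3 minus MDA-MB-453).

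**Figure D4:**
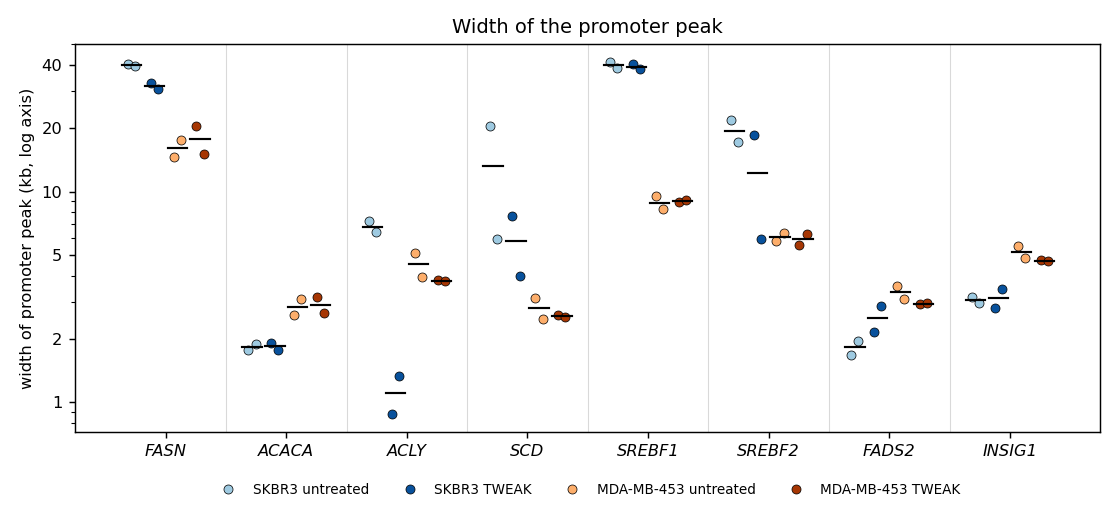
Width of the promoter peak (kb, log axis) for each gene, with a point per list and a bar at the group mean. SREBF1 has the widest gap between the lines, with SKBR3 between 38.0 and 41.4 kb and MDA-MB-453 between 8.24 and 9.53 kb, and the low SKBR3 TWEAK points of ACLY come from another start site.

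Neighbouring genes, those with a start within 1 Mb, moved in the direction of the gene itself for some of the 8 and against it for others. Windows of near neighbours overlap that of the gene, so they share peaks and part of any agreement is built in. Over all genes, SKBR3 was wholly above for 40.8% and MDA-MB-453 for 22.8% by covered length, and for 29.5% and 29.8% by promoter percentile. By covered length, SKBR3 was wholly above for 55 of 62 neighbours of FASN and MDA-MB-453 for 1. The same counts were 60 and 8 of 103 for ACLY, 16 and 4 of 30 for SREBF1 and 29 and 6 of 42 for SREBF2, all in the direction of the gene. They were 4 and 8 of 24 for ACACA and 0 and 2 of 7 for INSIG1, also in its direction, and 54 and 4 of 69 for FADS2, which overlapped. For SCD they were 4 and 18 of 31, against the direction of SCD. By promoter percentile, SKBR3 was wholly above for 28 of 50 neighbours of ACLY and MDA-MB-453 for 2, and the counts were 10 and 2 of 27 for SREBF1, 5 and 17 of 33 for SREBF2, 1 and 7 of 14 for ACACA and 0 and 2 of 4 for INSIG1, each in the direction of the gene. For the 3 genes that overlapped they were 35 and 5 of 56 (FASN), 1 and 19 of 25 (SCD) and 15 and 8 of 57 (FADS2). ACLY and ACACA lie 2.14 and 2.28 Mb from ERBB2, the HER2 gene, whose promoter peak was at percentile 99.98 or above in all 8 lists. Copy number was not measured in these files, and its part in the line differences was not tested.

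Of the 90 regions in the windows, 22 were in all 8 lists and 24 in 1 list only. In all, 17 regions were in every SKBR3 list and no MDA-MB-453 list, against 14.1% of all regions, and 3 were in every MDA-MB-453 list and no SKBR3 list, against 10.5%. With peaks of q under 1e-05 only, these were 4 and 5, and in lists of equal size 8 and 5. The shares of all regions under these settings were not computed, so these counts have no background beside them. The SREBF1 window held 6 of the 17, ACLY 4, FASN, SREBF2 and FADS2 2 each and ACACA 1. All of those in the SREBF1 window lay inside or at promoters of its neighbours RAI1 and TOM1L2. Of the 17 regions, 8 lay inside another coding gene and 5 at the promoter of one. The mean percentiles of the 17 had a median of 36.8. The highest, at 68.9, was at the KLHL10 and NT5C3B promoters in the ACLY window (41835502 to 41836257). An intronic SREBF2 region of 10.7 kb (41855902 to 41866634) was at 75.0, 61.9, 70.3 and 68.4 in the SKBR3 lists, a mean of 68.9, and a region inside ODAD4 in the ACLY window (41948397 to 41950076) had a mean of 61.5. The 3 MDA-MB-453 regions were in ACACA introns at 37146741 to 37148776 (mean percentile 53.8) and 37317427 to 37318616 (25.1), and inside CCDC134 near SREBF2 at 41822515 to 41823669 (30.8).

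Large peak clusters, built by stitching nearby peaks that were not wholly within 2.5 kb of a start site and taking those above the slope-1 point of the ranked width times fold, overlapped the windows of FASN, SREBF1 and SREBF2 in all 8 lists. SCD had one in 3 SKBR3 lists and 1 MDA-MB-453 list, INSIG1 in 1 MDA-MB-453 list, and ACACA, ACLY and FADS2 in none. The share of all coding genes whose windows meet such a cluster was not computed, so whether these counts are unusual cannot be told. The cluster over the SREBF1 gene spanned 56.6, 177, 56.7 and 87.1 kb in SKBR3 and ranked 98, 8, 106 and 98, and in MDA-MB-453 it spanned between 35.6 and 35.8 kb and ranked between 207 and 255. The second untreated SKBR3 list stood apart from the other SKBR3 lists, and all 4 ranked higher than MDA-MB-453. The cluster over the FASN gene ranked 114, 70, 127 and 198 in SKBR3 and between 113 and 127 in MDA-MB-453, with overlap. In both untreated SKBR3 lists and the first TWEAK list, another cluster at the edge of the FASN window ranked higher, at 25, 19 and 41.

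The question of the TWEAK comparison was whether the cytokine changed H3K27ac in these HER2 lines. With 2 lists against 2 in a line, the exact permutation test over 6 assignments cannot go below p = 0.333, so a difference is given only where both TWEAK lists lay on the same side of both untreated lists. In SKBR3, the SREBF2 promoter percentile was higher with TWEAK (86.4 and 91.3 against 85.1 and 82.4, 5.14 points), as in 9.30% of genes. The 91.3 came from a peak of 5.98 kb, where the other SKBR3 lists had peaks of 17.2 to 21.8 kb. The part of peak width in this difference was not tested. ACACA (74.6 and 79.0 against 81.5 and 81.9, -4.87 points) and ACLY (83.5 and 82.3 against 86.5 and 88.3, -4.50 points) were lower, as in 22.2% of genes. At the RefSeq starts, where all lists gave the same ACLY peak, ACLY was also lower (-6.30 points). In MDA-MB-453, SCD (74.6 and 74.4 against 67.7 and 73.3, 4.03 points) and INSIG1 (93.6 and 92.8 against 90.3 and 92.2, 1.97 points) were higher, as in 23.1% of genes, and 0 of the 8 were lower, against 11.1%. Single lists carried much of these values. The SCD difference was 1.19 points without the first untreated MDA-MB-453 list and 6.86 without the second, and the INSIG1 one was 0.994 and 2.95. The ACACA difference was -2.67 points without the first SKBR3 TWEAK list and -7.07 without the second, and the SREBF2 one was 7.60 and 2.69. The median change over all genes was -0.871 points in SKBR3 and 0.21 points in MDA-MB-453, and for the 8 genes it was -0.847 and 0.18. The second SKBR3 TWEAK list held the most peaks, 51687, so percentiles there were taken over more peaks.

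Covered length separated TWEAK from untreated for 1 gene in each line. In SKBR3 it was higher at INSIG1 by 0.773 kb, or 1.23 and 0.317 kb without the first or second untreated list (17.8% of genes were higher, and 0 of the 8 were lower against 13.0%). In MDA-MB-453 it was lower at ACLY, at -0.265 kb, or -0.143 and -0.387 kb without the first or second untreated list (14.7% of genes were lower, and 0 of the 8 were higher against 17.2%). The FASN promoter peak in SKBR3 was narrower in both TWEAK lists (32.7 and 30.5 kb) than in the untreated ones (40.3 and 39.3 kb), with separate weaker peaks over the 3′ end of the gene. Over all genes, 16.4% had a narrower promoter peak with TWEAK in SKBR3 and 13.4% a wider one, FADS2 being the gene of the 8 with a wider and ACLY the other with a narrower peak, the ACLY difference coming from the switch to the ODAD4-side start. In MDA-MB-453, ACLY, FADS2 and INSIG1 had narrower peaks (13.9% of genes) and 0 of the 8 wider ones (16.8%), but for FADS2 the first untreated list gave another peak than the other lists. No gene's TWEAK effect on promoter percentile differed between the lines at the smallest exact permutation p of 0.0556, and the lowest was 0.111, for ACLY (-7.56 points, SKBR3 effect minus MDA-MB-453 effect) and SREBF2 (5.34 points).

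**Figure D5:**
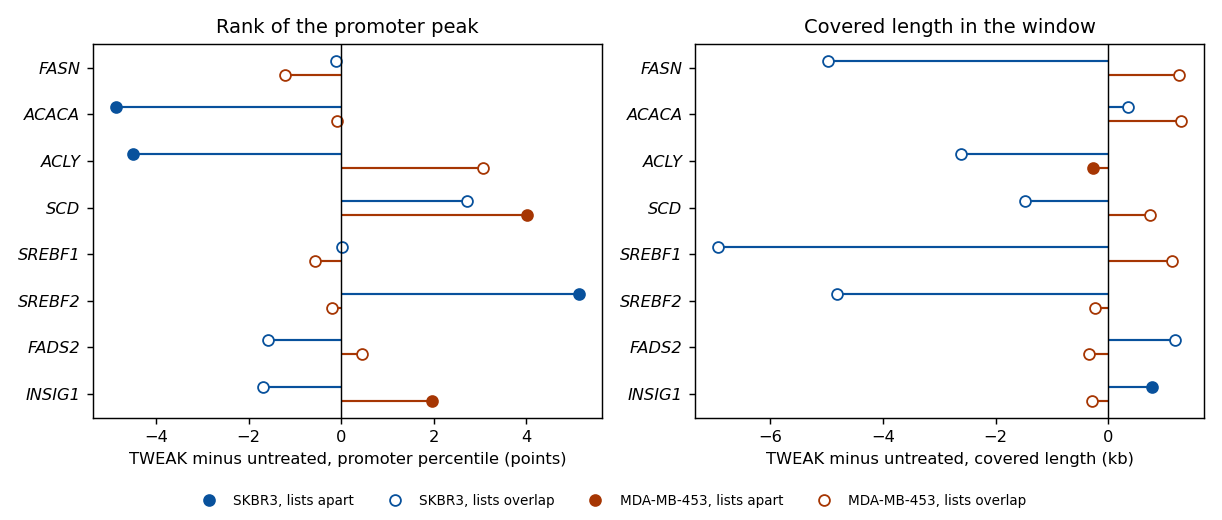
TWEAK minus untreated difference of group means for each gene, as percentile points of the promoter peak (left) and kb of covered length (right). Filled points are genes whose 2 TWEAK lists lay wholly to one side of the 2 untreated lists, namely SREBF2, ACACA and ACLY in SKBR3 and SCD and INSIG1 in MDA-MB-453 by percentile.

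One region of the windows was gained with TWEAK, and it lay downstream of INSIG1. Of the 82 SKBR3 regions in the windows, 40 were in all 4 lists, 1 was gained and 0 were lost, where 4.61% and 1.40% of all SKBR3 regions were gained and lost. Of the 52 MDA-MB-453 regions, 39 were in all 4 lists and 0 were gained or lost, where the shares were 1.33% and 1.30%. The gained region, at 155316825 to 155317391 on chromosome 7, lies outside coding genes, 18.9 kb from the INSIG1 start. It was a peak of 0.567 kb at percentile 39.7 in the first SKBR3 TWEAK list and of 0.227 kb at 40.1 in the second, with −log10 q of 3.48 and 3.54 and fold enrichments of 3.57 and 3.59. In all 4 MDA-MB-453 lists the same place carried a strong peak, at percentiles 95.7, 96.0, 97.0 and 96.4 and fold enrichments from 21.8 to 24.2, higher in rank than the INSIG1 promoter itself. Neither gained peak reached a q under 1e-05, and with that limit the region was absent from the SKBR3 lists.

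The middle 300 bases of the gained region (chr7:155316958-155317257, hg38, plus strand) are shown with an E-box and a match to the NF-κB motif in capitals. NF-κB is the transcription factor family that TWEAK is known to activate, and this motif was added after the region was known.
INSIG1 downstream region: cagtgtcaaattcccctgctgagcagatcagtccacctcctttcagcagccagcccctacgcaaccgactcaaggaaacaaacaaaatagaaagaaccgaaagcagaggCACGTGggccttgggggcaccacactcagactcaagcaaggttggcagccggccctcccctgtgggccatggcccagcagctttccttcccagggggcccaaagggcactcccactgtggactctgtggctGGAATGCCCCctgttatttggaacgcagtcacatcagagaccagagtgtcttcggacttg
The NF-κB match, GGAATGCCCC on the plus strand, is read on the minus strand. Windows of the same length at the midpoints of all 62104 SKBR3 regions held an NF-κB match in 9.61% and an E-box in 7.42%. The NF-κB motif also matched in the promoter window of SREBF2 (GGGGAATCCC, 18 to 9 bases before the start, left unmarked above). Another match was in that of SREBF1 (GGGGTCCCCC, 115 to 106 bases before the start). Of all RefSeq windows of 250 bases, 5.2% held a match. The gained region had no AP-1 match (TGANTCA), which 23.3% of those windows held.

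Other genes of the pathway showed both directions. Among 22 sterol synthesis genes with a promoter peak, promoter percentile was wholly above in SKBR3 for 4 and in MDA-MB-453 for 11 (median difference -2.33 points), beside 29.5% and 29.8% of all genes. STARD4 (24.3 points) and MVK (15.5) were among the first and SC5D (-83.4), NSDHL (-26.3) and FDFT1 (-14.1) among the second. Among 23 fatty acid and triglyceride synthesis genes the counts were 7 and 6, led by ME1 (85.6 points), THRSP (68.4) and ACSL5 (62.7), each without a promoter peak in MDA-MB-453, and by FADS1 (-80.8), AGPAT2 (-59.4) and GPAM (-32.7). The FADS1 start lies in the same merged region as the RefSeq starts of FADS2, so FADS1 is not a separate observation from the FADS2 difference there. Among 18 regulators they were 5 and 4, with PPARG (68.1), PPARGC1B (11.3) and MBTPS1 (4.37) higher in SKBR3 and INSIG2 (-30.3), PPARA (-14.2) and SCAP (-12.9) higher in MDA-MB-453. INSIG2 and SCAP, partners of INSIG1 in sterol sensing, were on the same side as INSIG1, as was SREBF2 (-12.2 points). MBTPS1 and SREBF1 were on the other, SREBF1 by 1.35 points that reversed with q under 1e-05. The fatty acid and regulator counts were close to the shares of all genes. By covered length SKBR3 was wholly above for more genes than MDA-MB-453 in each list, as it was over all genes. The counts were 13 and 3 of 23 sterol genes, 10 and 3 of 27 fatty acid genes and 14 and 2 of 18 regulators, beside 40.8% and 22.8% of all genes. For the fatty acid genes the SKBR3 share was below that of all genes. With TWEAK in SKBR3, the percentile was higher in both lists for 7 sterol genes and lower for 3, with 1 and 3 for fatty acid genes and 1 and 6 for regulators, beside 9.30% and 22.2% of all genes. In MDA-MB-453 the counts were 5 and 0, 6 and 2, and 5 and 3, beside 23.1% and 11.1%.

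By Euclidean distance over the 8 promoter percentiles, the coding gene nearest to FASN was CCDC57 (2.10 points), which shares its peak, and that nearest to FADS2 was TMEM258 (1.65), which shares its highest-ranked peak. The nearest to the others were SNRPG for SREBF1 (1.57), TRIM69 for SREBF2 (4.68), MTRES1 for ACACA (4.20), TNFSF13 for ACLY (5.71), CCNL2 for SCD (6.47) and IP6K1 for INSIG1 (4.40).

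Of the HER2 and luminal epithelial markers, ERBB2, GRB7, EPCAM, KRT8, KRT18, GATA3 and FOXA1 had a promoter peak in all 8 lists. CDH1 had one in the 4 MDA-MB-453 lists and in 0 SKBR3 lists. Of 5 basal or mesenchymal genes, KRT14 and CDH2 had a promoter peak in none, and KRT5, TP63 and VIM had one in 2, 5 and 7 lists. The blood cell genes PTPRC and CD3E had none in any list.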

How the data were processed

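H3K27ac ChIP-seq peaks of 8 libraries were used. The submitters' notes name Trimmomatic, Bowtie2, MACS2, deepTools and hg38, without versions, and the peak calling options are not given in the sources used here. Per the study's methods, input was subtracted and blacklisted regions were removed. Each deposited list has 9 columns and no header. The authors' score in column 5 was the whole part of 10 times the deposited −log10 q for at least 99.95% of peaks, and the lists also give the authors' fold enrichment (a ratio over background) and −log10 p. The 2 inputs were not used. No reads were given, so depth is unknown and no counting interval can be had.

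Peaks were analysed with Python 3.11.15, numpy 2.4.6 and pandas 2.3.3. All names and ends lay within hg38 (0 outside). A promoter peak was the highest-scoring peak within 1 kb of a GENCODE release 44 start, with an absent peak set to 0. Lines were compared by exact two-sided permutation of 4 and 4 lists (70 assignments, smallest p 0.0286), TWEAK by 6 assignments (0.333) and the difference of TWEAK effects by 36 (0.0556), with Benjamini-Hochberg adjustment over all genes. A call means that groups did not overlap. Named genes were the 8 members, regions gained or lost with TWEAK, the 3 line-specific regions per line highest in mean percentile, up to 3 called genes per pathway list and direction, and the nearest gene by profile. RefSeq promoter windows held 7 of the 8 genes, and for FASN the 5′ end of the gene was used. Members and lists were chosen with earlier results of these data known. The measures were tested on simulated data. Some items are not reported here.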

Additional observations from a re-analysis of the deposited data

Results flagged for a closer look

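Among 48 groups of 4 lists (3 measures, 8 genes, 2 lines), 4 had a list whose gap to its nearest neighbour exceeded the 95% critical value of Dixon's test. Chance flags about 1 in 20 groups, which here is 2.4. The FASN promoter percentile was 94.3 in the first MDA-MB-453 TWEAK list, against 96.7 to 97.0 in the other MDA-MB-453 lists. The first untreated MDA-MB-453 list had the other 3, all of them wide promoter peaks. ACLY was 5.13 kb wide there against 3.76 to 3.94 kb, SCD was 3.13 kb against 2.49 to 2.59 kb, and INSIG1 was 5.54 kb against 4.70 to 4.83 kb. That list also had the highest share of MDA-MB-453 peaks with q under 1e-05, 63.8%, and its part in these widths was not tested.

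The TWEAK effect on promoter peak width differed in sign between the lines for FADS2 at GENCODE starts and for ACLY at RefSeq starts. Each reached the smallest p the design allows, and the share of all genes that do so was not computed. At GENCODE starts the ACLY change had the same sign in both lines, with an exact permutation p of 0.333 for the difference. For FADS2 the change was 0.681 kb in SKBR3 and -0.389 kb in MDA-MB-453, a difference of 1.07 kb. The first untreated MDA-MB-453 list gave the FADS1-side peak there and the other 7 lists the FEN1 peak, so the FADS2 value compares different peaks. For ACLY at its RefSeq starts it was 0.634 kb and -0.749 kb, a difference of 1.38 kb. The exact permutation test of the difference gave p = 0.0556 for each, the smallest that 36 assignments allow. The MDA-MB-453 change of ACLY includes the wide peak of the first untreated list named above.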

How the results depend on the processing

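Apart from RefSeq starts by promoter percentile, the shares over all genes or regions were computed only for the main setting. Counts under the changed settings below therefore have no background beside them. Between lines, covered length separated 7 genes and promoter peak width 6, and no setting moved either count by over 1.5 times. Leaving out 1 list gave 7 to 8 and 6 to 7. Ranking by fold enrichment left 3 of 5 genes separated by promoter percentile, and leaving out 1 list gave 5 to 6. The cause was not tested. ACACA covered length lost its separation with 100 kb flanks (-3.87 kb) and SCD covered length when divided by that of the list. SREBF1 percentile reversed to -0.071 points with q under 1e-05. SKBR3-specific regions (17) were 4 with q under 1e-05, 8 in lists of equal size and 8 with 20 kb flanks. MDA-MB-453-specific ones (3) were 5, 5, and, with 100 kb flanks, 6, or 9 where peaks had to cover 50% of a region. Without 1 list the ranges were 17 to 20 and 3 to 4.

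TWEAK counts moved with many settings, and the cause was not tested, except that fewer lists separate more easily. The promoter percentile separated 3 genes in SKBR3, 1 with q under 1e-05 and 3 to 7 without 1 list. In MDA-MB-453 it separated 2, but 4 with q under 1e-05, in lists of equal size or with the 5′ end of the gene only, and 3 to 6 without 1 list. Covered length separated 1 gene in SKBR3, but 3 with q under 1e-05, 0 in lists of equal size, 2 with 20 kb or 100 kb flanks and 2 to 8 without 1 list. In MDA-MB-453 it separated 1, but 2 with q under 1e-05, 0 with 20 kb flanks, 2 with 100 kb flanks and 3 to 8 without 1 list. ACLY covered length with TWEAK in MDA-MB-453 reversed to 0.165 kb with 20 kb flanks. In lists of equal size 1 gene reached the smallest p for a line by TWEAK difference, against 0.

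SKBR3 gained 1 region, 2 with 100 kb flanks and 2 to 4 without 1 list. With q under 1e-05, or with 50% coverage, the 1 gained region was another, near FADS3 in the FADS2 window. SKBR3 lost 0, 3 in lists of equal size, 1 with 50% coverage and 1 to 12 without 1 list. MDA-MB-453 gained 0 (0 to 4 without 1 list) and lost 0, 1 with q under 1e-05 and 1 with 100 kb flanks (0 to 2 without 1 list). The replicate block is a looser rule, which asks only for the same sign in both same-numbered pairs and allows groups to overlap. By percentile 6 SKBR3 genes and 4 MDA-MB-453 genes met it, and by covered length 6 and 3. The share of all genes that meet this rule was not computed, so these counts are not read as TWEAK effects. Same-numbered lists deviated together in SKBR3 (correlation of replicate differences over genes 0.305 for percentile, 0.631 for covered length) but not in MDA-MB-453 (-0.027 and -0.042), and they share only a number. FASN, SREBF1 and SREBF2 had a large cluster in every list under the settings tried, and SCD joined them with 5 kb stitching or with peaks near starts kept.
RefSeq starts, division by list length and the untreated lists alone were alternatives chosen after seeing the data.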
